A study of Mus musculus with 12 samples.

Results

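The 10 receptor tyrosine kinase genes described here were chosen by their symbols: Egfr, Erbb2, Erbb3, Met, Axl, Fgfr1, Igf1r, Pdgfra, Pdgfrb and Epha2. They are 10 of the 35013 genes in the deposited tables, and 9 of them had enough counts to be tested. The choice was made with earlier results of these data known. Poly-A RNA was sequenced from KP1, a mouse cell line that the labels give as LUAD (lung adenocarcinoma). One KP1 line carried an empty vector (EV) and the other overexpressed NRF2, the transcription factor of the antioxidant response that is encoded by Nfe2l2. Each was kept for 16 h in RPMI with serum and either the solvent DMSO or romidepsin at 5 nM, a drug that blocks class I histone deacetylases. Each line and treatment thus made a group of 3 libraries, 12 in all, and the design text calls the libraries of a group biological replicates. The labels name no promoter for the NRF2 vector and do not say whether a line is 1 clone or a pool, so the p-values reflect variation among cultures only.

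Receptor tyrosine kinases are membrane proteins that dimerise when a ligand binds outside the cell and then phosphorylate each other and their adaptors inside it, which switches on the RAS-MAPK, PI3K-AKT and STAT pathways. EGFR, ERBB2 and ERBB3 work as pairs: ERBB2 has no known ligand, and ERBB3 has a weak kinase but strong docking sites for PI3K. In lung adenocarcinoma EGFR is a known oncogene, and MET and AXL are known for sustaining growth when EGFR is inhibited. The values below are messenger RNA levels and say nothing of receptor protein or its phosphorylation.

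The libraries held 16842824 to 28003010 estimated counts. Levels are given as CPM, each library's counts divided by its size after TMM correction (a factor that evens out differences in composition). Differences are log2 fold changes ± SE from the quasi-likelihood test of edgeR, with Benjamini-Hochberg adjusted p-values over all 13502 genes tested, and a gene is called higher or lower at an adjusted p under 0.05. Nfe2l2 lay at 101 to 103 CPM in EV with DMSO against 281 to 352 in NRF2 with DMSO, and at 93.3 to 99.0 in EV with romidepsin against 339 to 365 in NRF2 with romidepsin, so every library matched its line's label. Replicate 3 of NRF2 with DMSO stood apart from its group, with a root mean square log2 deviation of 0.526 where no other library passed 0.414. Its mitochondrial genes held 7.30% of counts, against 4.84 to 6.35% in the other libraries, and their part in its values was not tested. Results that it decides are given with and without it. Of the markers of lung epithelium, Sftpa1 was at 0 in all 4 groups and Nkx2-1, Sftpb and Sftpc were at or near 0, while the keratin gene Krt8 averaged 1259 to 3308 CPM and the cadherin gene Cdh1 227 to 417 CPM.

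The 5 stretches of upstream sequence below are shown because the receptors differ in which regulatory letters they hold, and because 1 of them, Met, holds letters of the element that NRF2 binds. They are from RefSeq's table for GRCm38.p6, which matched 7 of the 10 genes (not Erbb3, Fgfr1 or Pdgfrb), and run 5′ to 3′ on the gene's strand. Capitals mark matches to a GC box (GGGCGG on either strand), a cyclic AMP response element (TGACGTCA), or the antioxidant response element core (TGACNNNGC) together with the AP-1 site (TGANTCA) that overlaps it.
Egfr, chr11:16751953-16752202, plus strand: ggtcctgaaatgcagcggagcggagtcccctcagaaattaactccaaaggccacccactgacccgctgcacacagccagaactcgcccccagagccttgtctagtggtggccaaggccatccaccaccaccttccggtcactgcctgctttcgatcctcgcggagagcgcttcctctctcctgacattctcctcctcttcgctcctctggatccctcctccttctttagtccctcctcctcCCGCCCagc
Erbb2, chr11:98412234-98412469, plus strand: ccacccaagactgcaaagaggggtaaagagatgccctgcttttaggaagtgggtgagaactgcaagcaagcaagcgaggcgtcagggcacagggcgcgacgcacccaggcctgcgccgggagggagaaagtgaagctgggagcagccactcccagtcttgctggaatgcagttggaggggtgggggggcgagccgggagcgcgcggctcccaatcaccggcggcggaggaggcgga
Axl, chr7:25788734-25788983, minus strand: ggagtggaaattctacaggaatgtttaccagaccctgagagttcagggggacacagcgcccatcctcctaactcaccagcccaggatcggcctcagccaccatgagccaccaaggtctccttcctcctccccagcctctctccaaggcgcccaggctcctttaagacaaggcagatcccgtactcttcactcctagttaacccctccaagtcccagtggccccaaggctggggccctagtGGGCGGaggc
Epha2, chr4:141300971-141301220, plus strand: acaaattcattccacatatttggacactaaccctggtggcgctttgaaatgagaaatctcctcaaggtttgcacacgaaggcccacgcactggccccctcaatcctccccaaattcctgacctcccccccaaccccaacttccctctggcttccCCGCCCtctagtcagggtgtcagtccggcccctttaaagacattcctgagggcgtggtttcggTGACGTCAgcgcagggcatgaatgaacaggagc
Met, chr6:17463891-17463920, plus strand: ctgttgcccgGCTGAGTCAcgggccgggca

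In the 250 bases before the start, the antioxidant response element core was found in 1 of the 7 receptor windows, that of Met, and in 10.2% of all 32851 windows of that length. The match reads on the minus strand and overlaps an AP-1 match, a motif held by 6.75% of windows. GENCODE places the start of Met upstream of this stretch, so that by that annotation it lies in the first exon. The cyclic AMP response element of Epha2 is a less common match, in 1.55% of windows. GC boxes, held by 32.7% of windows, were found in Egfr, Axl, Epha2, Igf1r and Met, those of Met outside its printed bases. The E-box CACGTG, held by 6.02% of windows, was found in Met alone, also outside its printed bases. Erbb2 and Pdgfra held none of the motifs searched. A match is a run of letters and not evidence of binding.

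Romidepsin changed all 9 tested receptors in both lines, and in the same directions. Egfr, Erbb3, Met, Fgfr1, Pdgfra and Epha2 rose, and Erbb2, Axl and Igf1r fell. Most genes moved: 76.5% of all genes were called in EV and 79.8% in NRF2 cells (39.1% and 40.5% higher, 37.4% and 39.3% lower), and the libraries of the treatments did not overlap in 81% and 79.8% of genes, so being called or apart is not a mark of these receptors. The sizes differed widely among them, from a 34.5-fold rise of Erbb3 to a 1.18-fold rise of Met in EV cells. The median log2 fold change of the tested receptors was 0.83 in EV and 0.66 in NRF2 cells, against 0.01 for all genes in each line. The receptors were chosen with earlier results of these data known, so their median describes these 9 genes only. NRF2 overexpression was called for fewer receptors, and for Met its effect was larger than that of romidepsin in EV cells, as described after the levels.

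**Figure D1:**
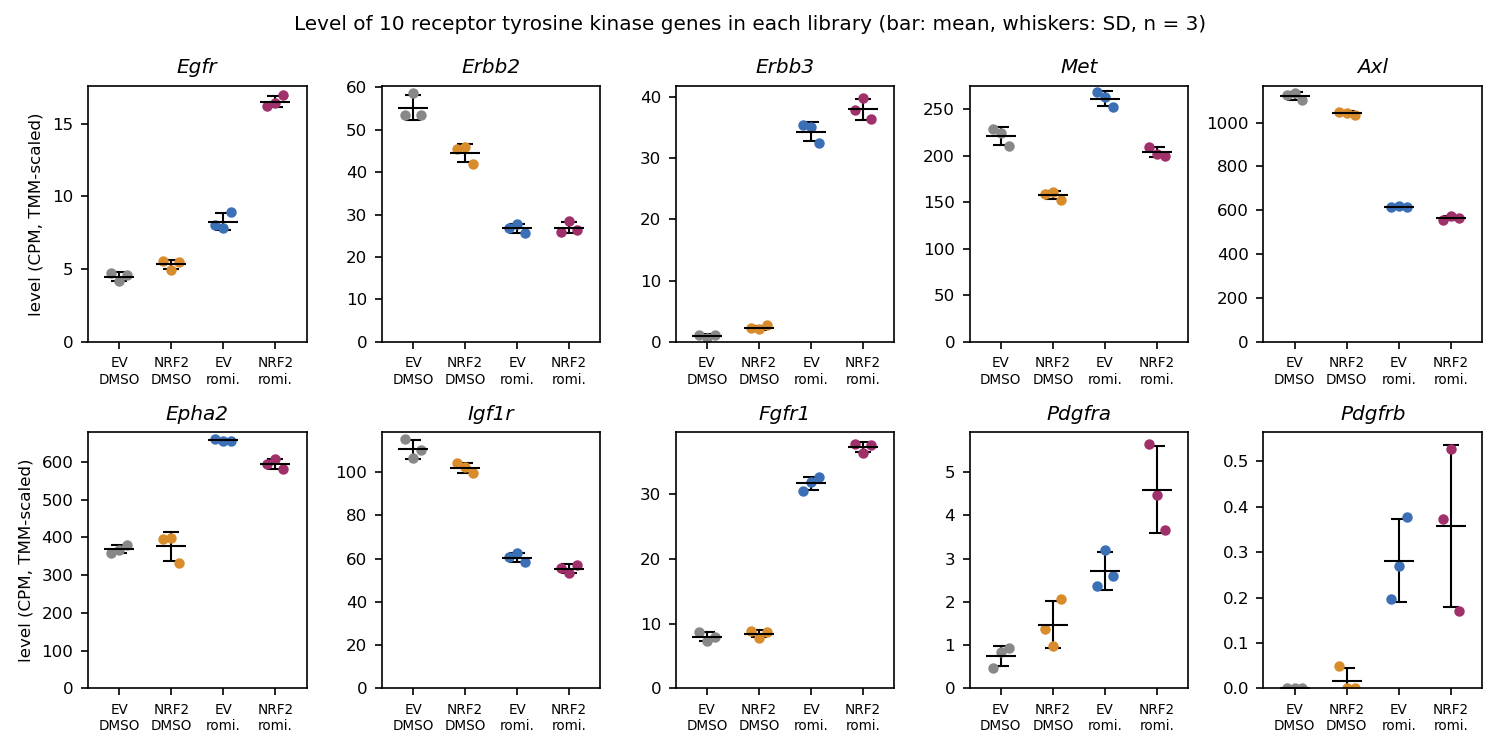
Level of each receptor gene in each of the 12 libraries, in CPM, grouped by line and treatment. Points are libraries, bars are means and whiskers are SD (n = 3). Erbb3 lies at 0.651 to 2.67 CPM in the 6 DMSO libraries and at 32.5 to 39.8 CPM in the 6 romidepsin libraries, while Axl runs the other way, from 1032 to 1134 down to 556 to 619 CPM.

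The ERBB receptors are taken first. Erbb3 (chr10:128567523-128589652, minus strand) had the largest change of the 9 receptors. It was barely detected in EV with DMSO, at 1.12, 0.651 and 1.12 CPM in replicates 1 to 3, and was at 35.3, 35.0 and 32.5 CPM in EV with romidepsin. In NRF2 cells it lay at 2.21, 2.06 and 2.67 CPM with DMSO and at 37.8, 39.8 and 36.3 CPM with romidepsin. No romidepsin library came near any DMSO library. The rise was 5.11 ± 0.13 (34.5-fold, edgeR adjusted p = 9e-16) in EV and 4.06 ± 0.11 (16.7-fold, adjusted p = 1.1e-15) in NRF2 cells.

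Before the drug, Erbb3 was already higher in NRF2 cells, by 1.20 ± 0.18 (2.29-fold, adjusted p = 6.2e-05), with all 3 NRF2 libraries above all 3 EV libraries. With romidepsin the lines were 0.15 ± 0.08 apart (adjusted p = 0.13), with all NRF2 libraries still above all EV libraries. That difference was called in 2 of 23 alternatives, limma-voom (adjusted p = 0.044) and edgeR on these groups alone (adjusted p = 0.015). As a fold change the romidepsin effect was therefore smaller in NRF2 cells. The interaction term, the difference between the effects of romidepsin in the lines, was -1.05 ± 0.20 (edgeR adjusted p = 0.0019). Across all genes 15.8% were called for the interaction, 5.53% higher and 10.2% lower in NRF2 cells.

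Erbb2 (chr11:98412470-98437716, plus strand), the partner that ERBB3 needs for strong signalling, fell. Its levels were 53.5, 58.7 and 53.6 CPM in EV with DMSO and 26.9, 27.8 and 25.6 CPM in EV with romidepsin. NRF2 cells had 45.4, 46.0 and 42.0 CPM with DMSO and 26.0, 28.5 and 26.3 CPM with romidepsin. The lines were apart with DMSO, with every NRF2 library below every EV library, and overlapped with romidepsin. The fall was -1.04 ± 0.06 in EV (edgeR adjusted p = 4.3e-11) and -0.72 ± 0.06 in NRF2 cells (adjusted p = 5.5e-09).

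NRF2 cells had less Erbb2 than EV cells with DMSO (-0.31 ± 0.06, adjusted p = 4.7e-04) and about the same with romidepsin (0.01, adjusted p = 0.88). The interaction was 0.32 ± 0.09 (adjusted p = 0.017). It missed the threshold without replicate 2 of EV with DMSO (0.28, adjusted p = 0.052), without replicate 3 of EV with romidepsin (0.29, adjusted p = 0.051) and without replicate 2 of NRF2 with romidepsin (0.28, adjusted p = 0.064). Erbb2 overlaps Mien1 on the opposite strand, and whether the counting used strand is not given in the sources used here. Mien1 held 7539 counts in all libraries against 9742 for Erbb2 and rose with romidepsin, by 1.30 in EV and 1.45 in NRF2 cells, the opposite of Erbb2. Its part in the Erbb2 values was not tested.

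Egfr (chr11:16752203-16918158, plus strand), the receptor of EGF, amphiregulin and related ligands, was low and rose in both lines. EV cells had 4.70, 4.15 and 4.59 CPM with DMSO and 8.05, 7.80 and 8.92 CPM with romidepsin. NRF2 cells had 5.55, 4.95 and 5.45 CPM with DMSO and 16.2, 16.4 and 16.9 CPM with romidepsin. The 3 libraries of NRF2 with romidepsin stood above all 9 others, and those of EV with romidepsin stood above all 6 with DMSO. The rise was 0.88 ± 0.10 (1.84-fold, edgeR adjusted p = 3.6e-07) in EV and 1.64 ± 0.09 (3.11-fold, adjusted p = 2e-11) in NRF2 cells, with an interaction of 0.76 ± 0.14 (adjusted p = 0.0012).

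With romidepsin NRF2 cells had 2.0-fold the Egfr of EV cells (1.0 ± 0.09, adjusted p = 1.2e-07). With DMSO the difference of 0.24 ± 0.11 did not pass the test (adjusted p = 0.11). Erbb3 and Egfr thus drew closer to Erbb2 in level per kilobase of transcript. The ratio of Erbb3 to Erbb2 went from 0.0096 ± 0.0031 (SD, n = 3) in EV with DMSO to 0.698 ± 0.016 with romidepsin, and from 0.0285 ± 0.0054 to 0.768 ± 0.021 in NRF2 cells. For Egfr to Erbb2 the ratio went from 0.0902 ± 0.0104 to 0.343 ± 0.038 in EV and from 0.133 ± 0.013 to 0.681 ± 0.039 in NRF2 cells. These ratios use the mean transcript length and change with another length. With the longest transcript as the length, Erbb3 exceeded Erbb2 with romidepsin. Their means were 5.70 and 5.34 CPM per kb in EV, and 6.31 and 5.38 in NRF2 cells. Egfr lay lower there, at 0.809 CPM per kb in EV and 1.62 in NRF2 cells. With DMSO and that length, Erbb3 and Egfr had 0.160 and 0.439 CPM per kb in EV, and 0.384 and 0.521 in NRF2 cells. By the longest transcript Erbb3 and Egfr thus moved apart from each other with romidepsin.

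**Figure D2:**
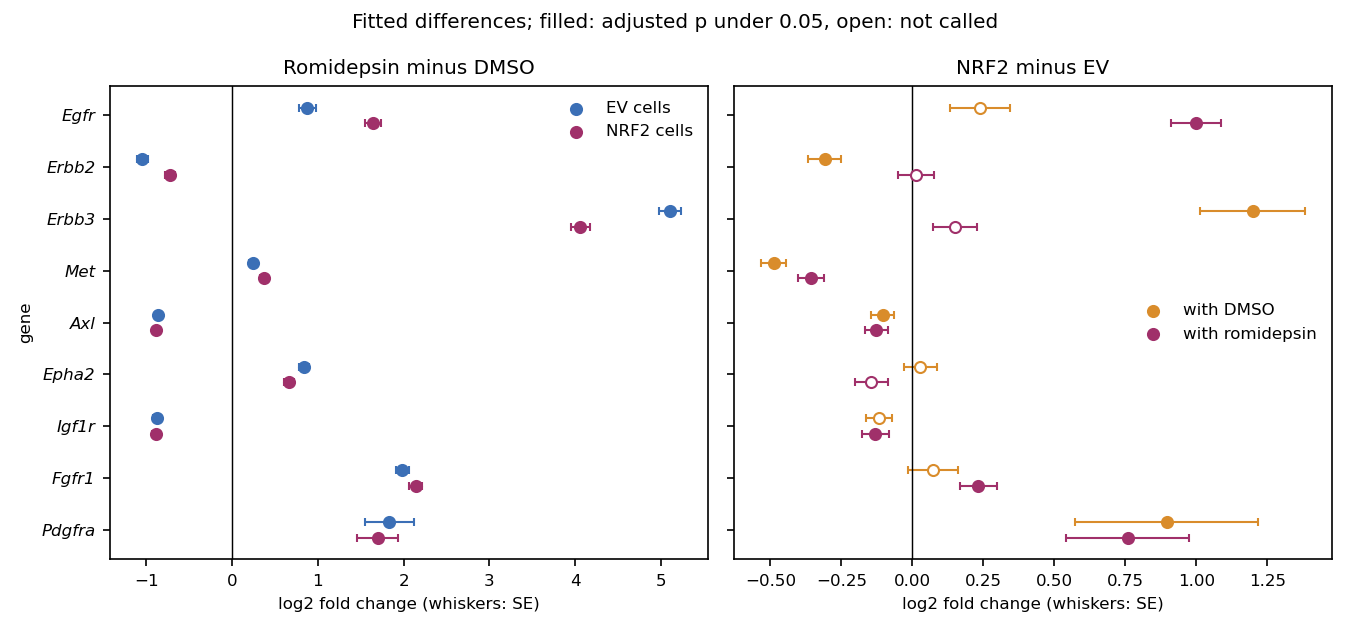
Log2 fold change of each tested receptor gene in the 4 pairwise comparisons, romidepsin against DMSO on the left and NRF2 against EV on the right. Whiskers are 1 SE from edgeR, and filled points are called. Romidepsin effects reach 5.11 for Erbb3 in EV cells, while the NRF2 effects lie between -0.49 for Met and 1.20 for Erbb3.

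Axl and Epha2 were the most abundant receptors per kilobase, and exchanged places with the drug. Axl (chr7:25757273-25788705, minus strand), the receptor of GAS6, had 1127, 1134 and 1102 CPM in EV with DMSO and 615, 619 and 615 CPM with romidepsin. In NRF2 cells it had 1049, 1045 and 1032 CPM with DMSO and 556, 575 and 563 CPM with romidepsin. The 4 groups did not overlap. The fall was -0.86 ± 0.04 in EV (edgeR adjusted p = 1.9e-12) and -0.88 ± 0.04 in NRF2 cells (adjusted p = 8.6e-13), and the lines' falls did not differ by the interaction test (-0.02, adjusted p = 0.85).

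Epha2 (chr4:141301240-141329384, plus strand), the receptor of A-type ephrins, rose. EV cells had 359, 368 and 380.4 CPM with DMSO and 662, 656 and 656 CPM with romidepsin. NRF2 cells had 397, 399 and 332 CPM with DMSO and 595, 609 and 582 CPM with romidepsin. Replicate 3 of NRF2 with DMSO, the library that stood apart, is the low value of its group. The rise was 0.83 ± 0.06 in EV (edgeR adjusted p = 4.7e-10) and 0.66 ± 0.06 in NRF2 cells (adjusted p = 8.2e-09), with an interaction of -0.17 (adjusted p = 0.17).

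Without that library Epha2 was called higher in NRF2 than in EV cells with DMSO (0.11, adjusted p = 0.01, against 0.03 and 0.75 with it). The interaction then became -0.27 (adjusted p = 6e-05). With romidepsin the lines differed by -0.14 ± 0.06, which fell at the threshold (adjusted p = 0.05). That value was called in 10 of 23 alternatives, among them the fits without replicates 1, 2 and 3 of NRF2 with DMSO, at adjusted p-values of 0.032, 0.031 and 7.4e-05.

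Per kilobase of mean transcript length, Axl led Epha2 with DMSO at 662 ± 9.95 against 249 ± 7.28 CPM per kb (SD, n = 3) in EV and at 615 ± 5.07 against 254 ± 25.8 in NRF2 cells. With romidepsin Epha2 led Axl at 445 ± 2.29 against 364 ± 1.09 CPM per kb in EV and at 402 ± 8.98 against 333 ± 5.65 in NRF2 cells. The order of this pair was the same with the longest transcript as the length. The ratio of Epha2 to Axl went from 0.377 ± 0.016 to 1.22 ± 0.0088 in EV and from 0.413 ± 0.039 to 1.21 ± 0.021 in NRF2 cells, and no romidepsin library overlapped a DMSO library. As a share of the summed level of the 10 receptors, Axl went from 63.7% to 38.5% in EV and from 63.3% to 38.9% in NRF2 cells, and Epha2 from 24.0% to 47.1% and from 26.1% to 46.9%.

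**Figure D3:**
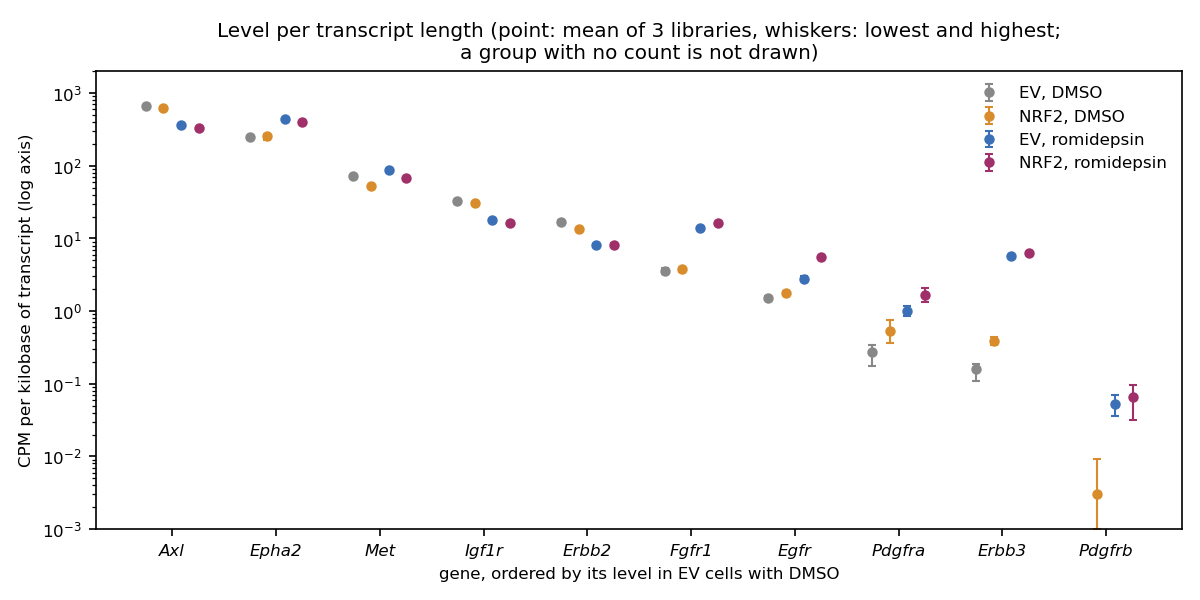
Level per kilobase of mean transcript length for the 10 receptor genes in each group, in CPM per kb on a log axis. Points are means of 3 libraries and whiskers run from the lowest to the highest library. Axl leads in both DMSO groups and Epha2 in both romidepsin groups, with Met next in all 4.

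Below that pair, Met came next in every group, at 52.1 to 86.3 CPM per kb. With DMSO the order went on as Igf1r, Erbb2, Fgfr1, Egfr, Pdgfra, Erbb3 and Pdgfrb in both lines, and Pdgfra and Erbb3 overlapped between libraries in each. In EV with romidepsin it went on as Igf1r, Fgfr1, Erbb2, Erbb3, Egfr, Pdgfra and Pdgfrb. In NRF2 with romidepsin Fgfr1 and Igf1r overlapped at 16.5 ± 0.336 and 16.5 ± 0.619 CPM per kb, followed by Erbb2, Erbb3, Egfr, Pdgfra and Pdgfrb. The places of Igf1r, Erbb2, Erbb3, Fgfr1 and Pdgfra depended on which transcript length was used.

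Met (chr6:17463800-17573980, plus strand), the receptor of hepatocyte growth factor, was the receptor that NRF2 lowered most with DMSO. It had 228, 225 and 210.2 CPM in EV and 159, 161 and 153 CPM in NRF2 cells with DMSO. With romidepsin it had 268, 263 and 253 CPM in EV and 209.8, 202 and 199.9 CPM in NRF2 cells. No NRF2 library reached an EV library of the same treatment. The difference between the lines was -0.49 ± 0.04 with DMSO (edgeR adjusted p = 1.8e-07) and -0.36 ± 0.04 with romidepsin (adjusted p = 5.7e-06).

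Romidepsin raised Met by 0.24 ± 0.04 in EV (adjusted p = 9.4e-05) and by 0.37 ± 0.04 in NRF2 cells (adjusted p = 5.7e-07). These were the smallest of the romidepsin effects, and the interaction of 0.13 did not pass the test (adjusted p = 0.18). Scaling by upper quartile or by library size alone moved the median of all genes to between 0.12 and 0.15 for romidepsin. Met then rose by at most 0.36 in EV, and every receptor kept its direction.

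Igf1r (chr7:67952827-68233668, plus strand), the receptor of insulin-like growth factors, fell by like amounts in both lines. Its mean went from 111 ± 4.38 to 60.5 ± 2.02 CPM (SD, n = 3) in EV and from 102 ± 2.28 to 55.4 ± 2.08 CPM in NRF2 cells, with no overlap between treatments. The changes were -0.87 ± 0.05 (edgeR adjusted p = 1.9e-11) and -0.88 ± 0.05 (adjusted p = 1.1e-11). Insr, the insulin receptor gene and the closest relative of Igf1r, fell too, from 73.4 to 43.2 CPM in EV and from 65.3 to 42.2 CPM in NRF2 cells (-0.76 ± 0.06 and -0.63 ± 0.06).

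Fgfr1 (chr8:25513654-25575718, plus strand), a receptor of fibroblast growth factors, rose about as much in each line. EV cells went from 8.76, 7.28 and 7.95 CPM to 30.5, 31.9 and 32.6 CPM, and NRF2 cells from 8.85, 7.84 and 8.67 CPM to 37.7, 36.4 and 37.6 CPM. The rise was 1.98 ± 0.08 (3.95-fold, edgeR adjusted p = 1.9e-13) in EV and 2.14 ± 0.08 (4.42-fold, adjusted p = 3.4e-14) in NRF2 cells. With romidepsin all NRF2 libraries were above all EV libraries, by 0.23 ± 0.07 (adjusted p = 0.0086). That call was lost without replicate 1 of NRF2 with romidepsin (0.21, adjusted p = 0.052).

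The PDGF receptors, which mark mesenchymal cells, were scarce. Pdgfra (chr5:75152292-75198215, plus strand) had 0.481, 0.829 and 0.926 CPM in EV and 1.38, 0.989 and 2.06 CPM in NRF2 cells with DMSO. With romidepsin it had 2.36, 3.20 and 2.60 CPM in EV and 5.66, 4.46 and 3.65 CPM in NRF2 cells. The groups did not overlap, and the spread within a group was wide. Romidepsin raised it by 1.83 ± 0.29 (3.57-fold, edgeR adjusted p = 1.7e-05) in EV and 1.70 ± 0.24 (3.24-fold, adjusted p = 4.4e-06) in NRF2 cells.

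NRF2 cells had more Pdgfra than EV cells, by 0.90 ± 0.32 with DMSO (adjusted p = 0.038) and by 0.76 ± 0.22 with romidepsin (adjusted p = 0.0087). The DMSO call was lost without replicate 1 or 2 of EV with DMSO (0.67 and 0.95, adjusted p = 0.15 and 0.069) and without replicate 1 or 3 of NRF2 with DMSO (0.92 and 0.62, adjusted p = 0.066 and 0.12). The romidepsin call was lost without replicate 1 of NRF2 with romidepsin (0.57, adjusted p = 0.072). Pdgfrb did not pass the expression filter, with 0 counts in EV and 1 in NRF2 cells with DMSO against 18 and 26 with romidepsin. In EV it was at least 5.79-fold higher with romidepsin, taking 3 counts in the whole DMSO group as the floor. In NRF2 cells the ratio was 24.4, with a 95% interval of 4.0 to 998.9 that covers counting error only. In the edgeR fit without the filter Pdgfrb was called higher with romidepsin in both lines (adjusted p = 2.5e-04 and 3.1e-04).

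Between the lines, NRF2 overexpression was called for 5 of 9 receptors with DMSO, where 36.3% of all genes were called (19.3% higher, 16.9% lower) and 42.5% had lines whose libraries did not overlap. Erbb3 and Pdgfra were higher, and Erbb2, Met and Axl were lower, of which Axl differed by only -0.10 ± 0.04 (edgeR adjusted p = 0.048). The Axl call was lost in 11 of 12 fits that left out 1 library, with adjusted p-values up to 0.13, and was kept without replicate 3 of NRF2 with DMSO. With romidepsin 6 of 9 were called, against 45.4% of all genes (23% higher, 22.4% lower, and 61.2% with lines that did not overlap). Called were Egfr, Fgfr1 and Pdgfra higher, and Met, Axl and Igf1r lower. Axl differed by -0.13 ± 0.04 (adjusted p = 0.015) and lost its call without replicate 2 of EV with romidepsin (-0.12, adjusted p = 0.054).

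Igf1r differed by -0.13 ± 0.05 with romidepsin (edgeR adjusted p = 0.04). The call was lost without replicate 1 or 2 of EV with romidepsin (adjusted p = 0.091 and 0.15) and without replicate 2 of NRF2 with romidepsin (adjusted p = 0.17). With DMSO the Igf1r difference was -0.12 (adjusted p = 0.062), and it was called without replicate 2 of EV with DMSO (-0.14, adjusted p = 0.047). Met, Axl and Pdgfra were called in the same direction with both treatments, each with no interaction called (adjusted p = 0.18, 0.85 and 0.86). The comparisons share groups, so they are not independent of each other.

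Levels of other cell-type markers moved alongside the receptors. The 9 lung epithelial markers summed to 3211 to 3249.9 CPM in EV with DMSO, 4675 to 5244 in NRF2 with DMSO, 5582 to 5709 in EV with romidepsin and 8094 to 8449 in NRF2 with romidepsin. Epcam, an epithelial adhesion gene, went from 0.0307 to 3.59 CPM in EV and from 0.0657 to 7.23 CPM in NRF2 cells, while the more abundant Cdh1 fell from 353 to 246 CPM and from 417 to 227 CPM (-0.52 ± 0.04 and -0.88 ± 0.04). Of the 5 epithelial markers tested, 4 rose and 1 fell in each line, where 76.5% (EV) and 79.8% (NRF2) of all genes were called. The 8 mesenchymal markers summed to 5158 to 5276 and 4494 to 4588 CPM with DMSO and to 7272 to 7425 and 6072 to 6449.6 CPM with romidepsin, in EV and NRF2 cells in turn. Most of that sum was Vim, which rose from 3438 to 6107 CPM in EV and from 3079 to 5348 CPM in NRF2 cells. Fn1 and the N-cadherin gene Cdh2 fell in both lines (-0.54 ± 0.06 and -1.26 ± 0.06 in EV, -0.71 ± 0.06 and -1.41 ± 0.06 in NRF2 cells). Of the 6 mesenchymal markers tested, 2 rose and 2 fell in EV and 3 rose and 3 fell in NRF2 cells, or 66.7% and 100% called. The leukocyte list rose almost wholly through Cd68, a lysosomal gene (3.27 to 49.6 CPM in EV), while its defining gene Ptprc stayed at or below 0.549 CPM on average, and the endothelial list summed to 4.24 to 10.5 CPM over all libraries, with Cdh5 at 0 with DMSO. In bulk RNA, fewer cells of a kind and less RNA per cell cannot be told apart, and the part of these markers in the receptor results was not tested.

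The listed ligands of these receptors and their families, 32 genes of which 23 were tested, did not move one way. Romidepsin raised 11 and lowered 6 in EV, and raised 7 and lowered 8 in NRF2 cells. That is 73.9% and 65.2% called, against 76.5% and 79.8% of all genes. The median log2 fold changes were 0.42 and -0.06, against 0.01 for all genes. For the interaction 1 was higher and 8 were lower in NRF2 cells, which is 39.1% of the list where 15.8% of all genes were called. Among the ligands of EGFR, Areg (amphiregulin) went from 32.5 ± 4.12 to 166 ± 0.559 CPM (SD, n = 3) in EV and from 40.5 ± 3.55 to 116 ± 6.99 CPM in NRF2 cells, with an interaction of -0.82 ± 0.11 (edgeR adjusted p = 1.2e-04).

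Btc (betacellulin) moved in opposite directions. It rose from 22.1 ± 1.48 to 27.2 ± 0.412 CPM in EV (0.30 ± 0.07, edgeR adjusted p = 9.8e-04) and fell from 34.2 ± 2.88 to 22 ± 0.74 CPM in NRF2 cells (-0.63 ± 0.07, adjusted p = 1.8e-07). The interaction was -0.93 ± 0.10 (adjusted p = 9.8e-06). Ereg, Tgfa and Hbegf, which encode further EGFR ligands, also had lower romidepsin effects in NRF2 cells, at -0.62 ± 0.10, -0.36 ± 0.06 and -0.27 ± 0.07 (adjusted p = 4.5e-04, 0.0011 and 0.011). This is the opposite sign to the interaction of Egfr itself.

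Fgf1, a ligand of FGF receptors, was at 0.315 ± 0.043 CPM in EV and 7.34 ± 1.01 CPM in NRF2 cells with DMSO, and at 0.785 ± 0.179 and 2.12 ± 0.161 CPM with romidepsin. NRF2 cells had 23.2-fold more with DMSO (4.54 ± 0.22, edgeR adjusted p = 4.3e-11), and the interaction was -3.10 ± 0.34 (adjusted p = 1.4e-05). Igf1, a ligand of IGF1R, was scarce in every group, at 0.352 to 1.72 CPM on average, and had an interaction of -2.06 ± 0.38 (adjusted p = 0.0013). Fgf2 fell in both lines, from 10.7 to 2.22 CPM in EV and from 12.3 to 1.93 CPM in NRF2 cells (-2.26 ± 0.12 and -2.67 ± 0.12), whereas its receptor gene Fgfr1 rose. Fgf18, also on the list, rose in both lines (4.48 ± 0.44 and 4.56 ± 0.41), at a mean of 1.13 CPM over all 12 libraries.

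Efna3, which encodes an ephrin that binds EphA receptors, rose with Epha2, from 1.38 to 37.5 CPM in EV and from 1.83 to 53.6 CPM in NRF2 cells (27.4-fold and 29.1-fold). Efna2 rose as well, from 0.759 to 7.86 CPM and from 2.72 to 14.4 CPM. Efna5 fell, from 47.8 to 29.3 CPM and from 48.6 to 30.2 CPM (-0.71 ± 0.05 and -0.69 ± 0.05).

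The gene of the AXL ligand, Gas6, was low. Gas6 had 0 counts in both DMSO groups, which allows up to 3 counts over a group, and 6 and 16 counts with romidepsin in EV and NRF2 cells, too few to test. Pros1 (protein S), which the ligand list also holds, fell from 9.99 to 5.38 CPM in EV and from 4.49 to 2.66 CPM in NRF2 cells (-0.90 ± 0.14 and -0.77 ± 0.17). Hgf, the ligand of MET, was not tested and averaged at most 0.0888 CPM in a group. Nrg1, a ligand of ERBB3, did not pass the test for romidepsin (46.0 against 48.1 CPM in EV, and 36.0 against 37.6 CPM in NRF2 cells). Nrg1 was lower in NRF2 cells with both treatments (-0.35 ± 0.05 each). Nrg2, also on the ligand list, averaged 3.34 CPM over all libraries, and romidepsin raised it by 0.60 ± 0.18 (EV) and 1.60 ± 0.19 (NRF2). With DMSO it was lower in the NRF2 line (-0.84 ± 0.21). Nrg2 was the 1 ligand called higher for the interaction (0.997 ± 0.266, edgeR adjusted p = 0.017). That call was lost without replicate 3 of EV with DMSO. Nrg4, at a mean of 0.233 CPM, was called higher with romidepsin in both lines.

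**Figure D4:**
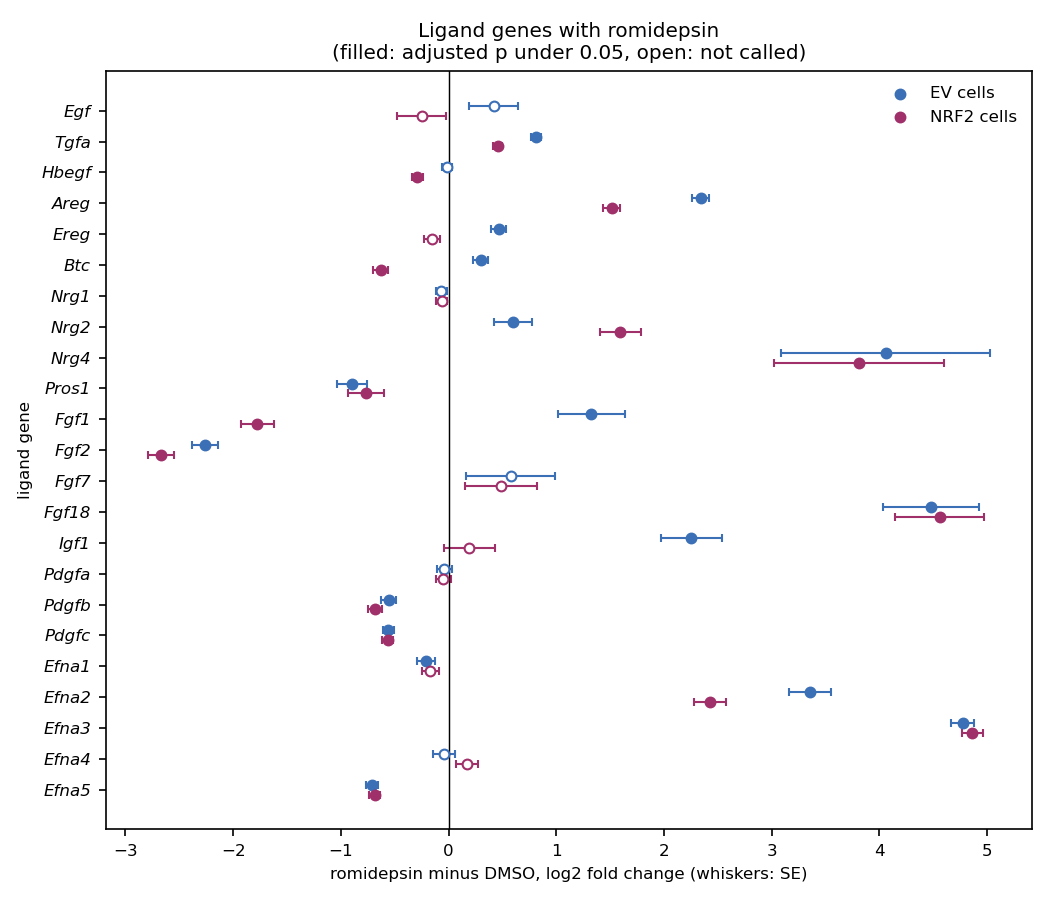
Log2 fold change of romidepsin against DMSO for the 23 tested ligand genes, in EV and in NRF2 cells, with whiskers of 1 SE from edgeR (filled points are called, open points are not). Areg lies at 2.34 in EV and 1.52 in NRF2 cells, Btc and Fgf1 lie on opposite sides of 0 in the lines, and Efna3 lies at 4.77 and 4.86.

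Among 44 other receptor tyrosine kinase genes, 28 were tested. Romidepsin raised 19 and lowered 4 in EV and raised 20 and lowered 6 in NRF2 cells, which is 82.1% and 92.9% called where 76.5% and 79.8% of all genes were. The medians were 1.28 and 1.49, against 0.01 for all genes. A receptor with next to no counts in DMSO passed the expression filter only where romidepsin brought it up, which fixes part of that upward balance. With upper-quartile or library-size scaling 2 instead of 4 were lower in EV. Ret, the receptor of GDNF ligands, went from 0.217 to 9.01 CPM in EV and from 0.181 to 18.7 CPM in NRF2 cells (5.37 ± 0.20 and 6.70 ± 0.19), and the ephrin receptor gene Ephb3 from 1.23 to 12.9 and from 1.81 to 24.3 CPM (3.37 ± 0.15 and 3.74 ± 0.13).

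Inhibitors of the receptors split in both directions, with 9 of 17 tested raised and 7 lowered in each line. That is 94.1% called, against 76.5% of all genes in EV and 79.8% in NRF2 cells. Errfi1, which encodes an inhibitor of ERBB kinases, rose from 214 to 565 CPM in EV and from 253 to 629.7 CPM in NRF2 cells (1.40 ± 0.05 and 1.32 ± 0.05). Ptpn1, a phosphatase gene that acts on the insulin and other receptors, rose from 65.5 to 147 and from 71.7 to 194 CPM (1.17 ± 0.05 and 1.44 ± 0.05). Grb14, an inhibitor of insulin receptor signalling, was lower in NRF2 cells with DMSO, at 5.23 against 17.3 CPM (-1.73 ± 0.08), and rose with romidepsin in both lines. Socs2, a suppressor of cytokine receptor signalling, fell, from 49.2 to 21.8 CPM and from 41.0 to 13.8 CPM.

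Of 21 adaptors and proximal effectors, all tested, romidepsin raised 9 and lowered 10 in EV and raised 10 and lowered 8 in NRF2 cells, or 90.5% and 85.7% called against 76.5% and 79.8% of all genes. Stat3, a transcription factor that receptors activate, rose from 43.9 to 122 CPM in EV and from 42.1 to 114 CPM in NRF2 cells. Src, a membrane-bound kinase gene, fell from 248 to 102 and from 268 to 87.6 CPM, and Sos2, which encodes an exchange factor that loads RAS with GTP, from 148 to 52.1 and from 148 to 41.0 CPM. Irs2, an adaptor of the insulin and IGF1 receptors, was lower in NRF2 cells with both treatments (-0.51 ± 0.05 and -0.43 ± 0.05).

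Genes that set how much ligand or receptor is at the surface moved in both directions. Igfbp3 and Igfbp4, which encode proteins that bind IGFs, fell from 483 to 187 CPM and from 1187 to 336 CPM in EV. In NRF2 cells they fell from 513 to 107 CPM and from 1334 to 241 CPM, and both interactions were called (-0.89 ± 0.06 and -0.65 ± 0.09). These stand in a list of 10 tested IGF binding proteins and co-receptors of which 5 rose and 5 fell in each line, where 76.5% and 79.8% of all genes were called. Of 10 tested sheddases and their regulators, 4 rose and 5 fell in EV and 5 rose and 4 fell in NRF2 cells, which is 90% called in each line. Mmp14, which encodes a membrane-bound metalloproteinase, fell from 123 to 29.2 and from 159.9 to 34.0 CPM, and Timp1, a metalloproteinase inhibitor gene, rose from 62.3 to 105 and from 63.4 to 115 CPM.

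Of the 13 receptor trafficking genes, all tested, 9 rose and 2 fell in EV, and 10 rose and 3 fell in NRF2 cells. That is 84.6% and 100% called against 76.5% and 79.8% of all genes, of which 39.1% and 40.5% rose, and the medians were 0.28 and 0.26 against 0.01 for all genes. Cltc, the clathrin heavy chain gene, went from 449.6 to 817 and from 443 to 858 CPM. Hsp90ab1, which encodes a chaperone that ERBB2 and other kinases need, fell from 6455 to 3953 and from 6396 to 3315 CPM (-0.71 ± 0.06 and -0.95 ± 0.06).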

How the data were processed

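KP1 cells of both lines were compared with DMSO and with romidepsin, 3 libraries a group. Per the submitters' processing notes, bcl2fastq 2.19, kallisto 0.44.0, DESeq2 (no version) and GRCm38 were used. The first table deposited by the authors holds estimated counts per gene symbol, all rounded to whole numbers. The second holds a normalized signal, which the authors made by dividing each count by the DESeq2 size factor of its library (matched within 2.2e-16). Other steps, strand use among them, are not given in the sources used here.

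Counts were fitted with edgeR 4.0.16 (TMM, default expression filter with a minimum count of 10, robust quasi-likelihood, 1 mean per group, all 12 libraries, 8 residual degrees of freedom, two-sided). That filter kept 13502 of 35013 genes, and 5 contrasts were tested. Fold changes used a prior count of 0.125. Positions are from GENCODE M21 on GRCm38, joined by symbol. Alternatives tried were 3 other scalings (RLE, upper quartile, library size), 2 other filters, DESeq2 1.42.0, limma 3.58.1 (voom, and trend on the deposited signal), groups alone, a replicate block, a stricter threshold and leaving out each library.

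The receptors and the lists of related genes were chosen with earlier results of these data known. All receptors are named in each comparison. List genes that could be named were, per pairwise comparison, the 3 called genes that changed most (mean of 1 CPM or more) plus the one that changed most against the majority, the 2 that changed most for the interaction, and any ligand. On simulated data with 200 changed genes, the fit recovered 74 to 90% of 2-fold and 16 to 50% of 1.25-fold changes over the 5 comparisons, with 3.21 to 5.88% of calls false. In the data themselves a far larger share was called, 15.8 to 79.8% of 13502 genes, so these rates need not hold there. Pdgfrb's position is not reported here. With 3 libraries a group, counting error and culture spread both limit genes under about 1 CPM.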

Additional observations from a re-analysis of the deposited data

Results flagged for a closer look

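The romidepsin effect differed between the lines by the interaction test of edgeR for 3 of the 9 receptors. Of all genes tested, 15.8% were called for the interaction (5.53% higher, 10.2% lower). The receptors were chosen with earlier results of these data known. For Egfr the romidepsin effect was 0.76 larger in NRF2 than in EV cells (log2, adjusted p = 0.0012). For Erbb2 the difference was 0.32 (adjusted p = 0.017), a smaller fall in NRF2 cells, and it missed the threshold without any 1 of 3 libraries. For Erbb3 the difference was -1.05 (adjusted p = 0.0019), a smaller fold rise in NRF2 cells from a higher level with DMSO. Its means went from 0.964 to 34.3 CPM in EV and from 2.31 to 38.0 CPM in NRF2 cells, so the rise in CPM was not smaller.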

How the results depend on the processing

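Over 45 receptor effects and 1026 values from the alternatives, 972 kept the call, 38 lost it and 16 gained it. Called effects that changed sign numbered 0. The threshold of 0.01 was applied to the main fit, so it could change a call but not a sign. The call of 33 effects never changed, those of romidepsin in both lines among them. Receptors called higher in NRF2 cells with DMSO numbered 1 instead of 2 with the replicate block, limma-voom, the 2 groups alone, or an adjusted p under 0.01. At 0.01, genes called lower there were 1503 instead of 2287, receptors lower in NRF2 cells with romidepsin 1 instead of 3, and for the interaction 309 genes were higher (747), 741 lower (1380) and 1 receptor higher (2).

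Leaving out 1 library gave 1 to 2 receptors higher with NRF2 in DMSO, 1 to 3 higher and 1 to 4 lower with NRF2 in romidepsin, and 1 to 2 higher and 1 to 2 lower for the interaction. Genes called for the interaction then ranged from 465 (without EV romidepsin replicate 2) to 921 higher and from 959 to 2127 (without NRF2 DMSO replicate 3) lower. Same-numbered libraries did not deviate together (correlations -0.105 to 0.0626), so no pairing by number was seen. A weak shared effect could be missed by this check over all genes. With the replicate block Axl (DMSO, adjusted p = 0.081), Pdgfra (DMSO, 0.059) and Igf1r (romidepsin, 0.054) lost their call between the lines. The values of Pdgfra, Pdgfrb, and Erbb3 with DMSO rest on few counts, which limits their precision.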
